A study of Mus musculus with 12 samples.

Results

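The comparison described here covers 6 of the 12 arrays of a study of microglia, brain macrophages taken from mice and grown as primary cells. The arrays were chosen by their titles: 3 wild-type arrays after ischemia and reperfusion, and 3 wild-type control arrays, with equal replicate numbers taken as pairs. Wild-type cells of the ischemia group spent 24 h in hypoxic or hypoglycemic medium and then 24 h under normal oxygen or glucose (reperfusion), the labels leaving open which of oxygen and glucose was withheld. Control cells had normal conditions during both periods, so both groups were read after the reperfusion step and no array shows the cells during deprivation. The other 6 arrays came from cells labelled TLR4 knockout, 3 after ischemia and 3 controls with the same times, and they serve below only as a comparison. The labels give no strain, age or sex. They call the samples triplicates without saying what was repeated, so the p-values rest on a spread between arrays that may be technical. They also conflict on 2 points: the source name of the wild-type ischemia arrays reads as control normoxia although title and series key place them under hypoxia, and the RNA extraction text names myocytes.

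Microglia watch brain tissue for damage with pattern receptors, clear dying cells and present antigen. In stroke, blood flow stops and later returns, and microglia of the affected tissue take on a reactive state. One part of that state is the type I interferon program. Cytosolic sensors or Toll-like receptors turn on interferon genes, secreted interferon binds its receptor on the same and on nearby cells, and transcription factors activated by that receptor then bind the interferon-stimulated response element in front of many antiviral genes. Irf7, itself such a gene, then amplifies interferon production. The question here was which genes differed after ischemia and reperfusion in cells labelled wild-type for Tlr4, the receptor for bacterial lipopolysaccharide.

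Signals are log2 values of 1 probe set per gene, so a difference of 1 is a doubling of signal. Of 15273 genes tested, each was fitted with limma, a linear model that steadies the spread of each gene with that of all genes. The fit compared ischemia with control within same-numbered pairs, and took the spread within pairs from both genotypes. A gene is said to have risen or fallen where the p-value adjusted by Benjamini-Hochberg over all genes was below 0.05. Same-numbered wild-type arrays deviated together from their group means, with correlations of 0.48, 0.73 and 0.48 over genes in pairs 1, 2 and 3. Control 1 and ischemia 3, which differ in number, correlated at 0.40.

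The 2 wild-type arrays numbered 2 stood apart from the other 4. On the first principal component of the 6 arrays, which held 53.8% of the variance, control 2 scored 18.1 and ischemia 2 scored 32.0, while the other 4 lay between -23.9 and -1.56. The second component, with 22.4%, separated the groups: the ischemia arrays scored 2.10 to 16.2 and the control arrays -16.1 to -7.09. Arrays numbered 2 also had the highest mean signal of the microglia and macrophage markers, at 10.68 in control and 10.65 after ischemia, against 9.98 to 10.35 in the other 4. Where leaving out a pair moves the count of a list by over 1.5 times, the counts without pair 1, without pair 2 and without pair 3 stand beside it below, in that order. Where nothing was called no such ratio exists.

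**Figure D1:**
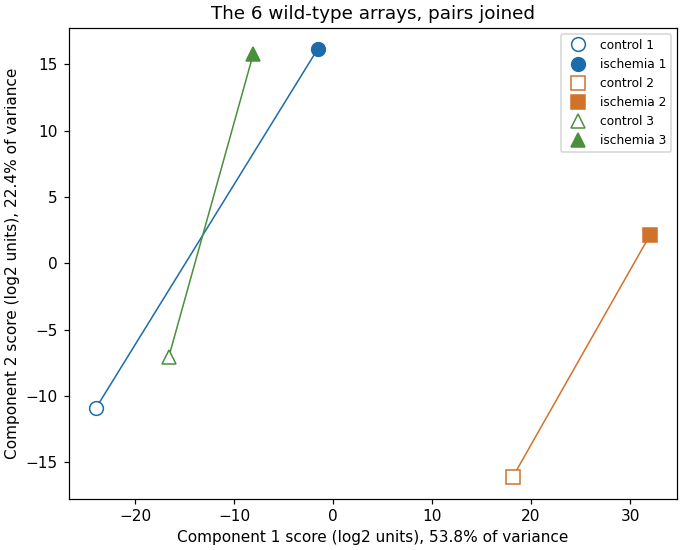
Scores of the 6 wild-type arrays on the first 2 principal components of 15273 genes, in log2 units, with the share of variance on each axis. Open symbols are control and filled symbols ischemia, and a line joins each pair; all 3 lines run upward along component 2, and pair 2 lies to the right at 18.1 and 32.0 on component 1.

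General macrophage genes were bright in all 6 arrays. Csf1r, the receptor for colony-stimulating factor, read 12.25 to 12.63, and the lysosomal membrane protein gene Cd68 read 13.04 to 13.27. The markers of resident adult microglia P2ry12, at 5.34 to 6.27, and Tmem119, at 6.46 to 6.65, were close to the 5.36 below which a gene's mean signal was left out as dim. Of the 13 microglia and macrophage markers tested, only Aif1 (Iba1) rose, by 0.52 (SE 0.11, limma adjusted p = 0.023), and none fell. This list had 0, 1 and 1 rises without pairs 1, 2 and 3. Cx3cr1, the fractalkine receptor, differed by -0.25 (adjusted p = 0.159) and Trem2 by 0.31 (adjusted p = 0.206). Tlr4 itself read 8.67, 8.90 and 8.72 in control arrays 1, 2 and 3 and 8.58, 9.02 and 8.54 in the ischemia arrays of the same numbers. The groups overlapped, and the difference of -0.05 did not pass (limma adjusted p = 0.794). In the arrays labelled TLR4 knockout it read 8.97, 8.64 and 8.39 in control and 8.93, 8.76 and 8.59 after ischemia, values that overlap those of wild type, so those arrays are called knockout-labelled.

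After ischemia and reperfusion 570 genes differed from control, which is 3.73% of those tested: 457 rose (2.99%) and 113 fell (0.74%). Rises made up 80.2% of the calls. Of the genes that rose, 42 rose at least 2-fold, 220 by 0.5 to 1 on the log2 scale and 195 by less than 0.5, with a median of 0.53. Only 3 genes fell at least 2-fold, 41 by 0.5 to 1 and 69 by less, with a median of -0.45. A change of the same sign in all 3 pairs was seen for 455 of the 457 and for all 113, where 25.8% of all genes were higher and 23% lower in every pair. The control and ischemia values did not overlap for 210 of the genes that rose and 75 of those that fell; over all genes 9.38% were higher and 12.3% lower without overlap.

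These counts rest on the pairing and on the set of genes fitted. Without the replicate block limma called 2 genes, AW112010 and Cfb, both higher (0.0131% of genes), while 2241 had an unadjusted p below 0.05. With the 6 wild-type arrays alone and the pairs kept, 372 rose (2.44%) and 96 fell (0.629%), among them 341 of the 457 and 83 of the 113. With all 24890 probe sets above the dim threshold in one fit, named or not, 17 rose and 1 fell; there the prior that steadies the spread had 3.82 degrees of freedom, against 9.71 in the fit used here. Those with a single gene symbol were Ifi206, AW112010, Irf7, Ccl5, Zbp1, Usp18, Rsad2, Phf11a, Timd4, Dhx58, Mx2, Ly6e, Cd86, Vnn3 and Cst7, which rose, and Slco4a1, which fell; all of them are also called in the fit used here.

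Pair 1 carried the largest of the 3 changes for 244 of the 457 genes that rose, pair 2 for 98 and pair 3 for 115; the median change of these genes was 0.65, 0.43 and 0.54 in pairs 1, 2 and 3. The falls leaned on pair 2, which had the largest change for 54 of 113 genes. Without pair 2, 460 genes rose, 285 of them among the 457, but only 28 fell, 17 of them among the 113. Without pair 1, 124 rose and 19 fell, and without pair 3, 189 and 59. A core of 101 genes that rose and 5 that fell kept call and direction in all of 9 alternatives, namely the wild-type arrays alone, no dim filter, quantile normalization, median centring, a trended robust prior, the mean of a gene's probe sets, and leaving out each pair. The fits without the replicate block, the fit of all probe sets and a stricter dim filter were not among these 9. Without the block only AW112010 and Cfb were called, as given above, so the core does not hold there. Of the 101, 38 were on the interferon lists below. The 5 were the cell division genes Mki67, Kif2c, Stil and Kntc1, and the organic anion transporter gene Slco4a1 (Kntc1 was named after its values were seen). Of these, Kif2c passed the dim filter only through the group where it was high, as given below.

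**Figure D2:**
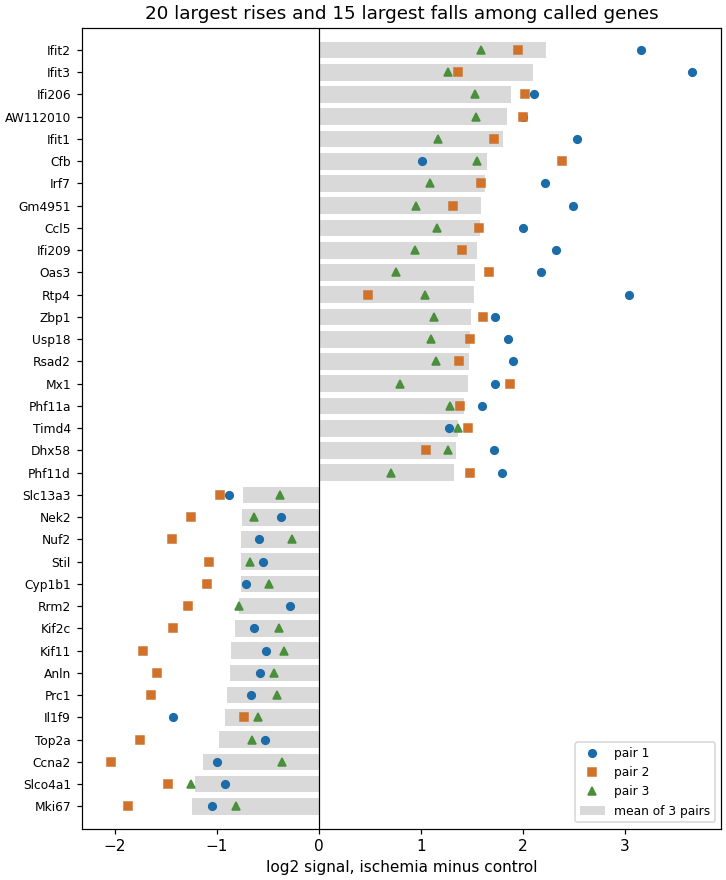
Change of the log2 signal from control to ischemia in each wild-type pair (points) and their mean (grey bars) for the 20 largest rises and 15 largest falls among called genes with the same sign in all 3 pairs. Pair 1 lies furthest right for most of the rises, up to 3.66 for Ifit3, and pair 2 furthest left for most of the falls, down to -2.04 for Ccna2.

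Genes of the type I interferon program led the rise. Across 9 lists of interferon-linked genes, 62 of 105 members tested rose and none fell, with a median change of 0.59 against 0.01 over all genes tested. Of the 42 genes that rose at least 2-fold, 24 were on these lists. The median of the 105 was 0.63, 0.67 and 0.39 in pairs 1, 2 and 3. With the wild-type arrays alone 61 rose, and 43, 46 and 59 without pairs 1, 2 and 3. Isg15 was not analysed here.

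Promoter sequences of 4 strongly raised interferon-responsive genes and of AW112010 and Mki67 follow as chosen examples. They are not simply the genes that moved most, and Ifit2, which rose most, is not among them. Each line gives the window from 250 bases before to 50 bases after the annotated start, read 5′ to 3′ along the gene (RefSeq, GRCm38.p6). Capitals mark the core of the interferon-stimulated response element, which is GAAA, then 2 bases of any kind, then GAAA, searched on both strands (on the other strand it reads TTTC, 2 bases, TTTC). In Mki67 they mark TTTGAA, the core of the cell cycle homology region found in promoters of mitotic genes, and CCAAT, the box bound by NF-Y (ATTGG on the other strand).
Ifit1 (chr19:34640639-34640938, plus strand): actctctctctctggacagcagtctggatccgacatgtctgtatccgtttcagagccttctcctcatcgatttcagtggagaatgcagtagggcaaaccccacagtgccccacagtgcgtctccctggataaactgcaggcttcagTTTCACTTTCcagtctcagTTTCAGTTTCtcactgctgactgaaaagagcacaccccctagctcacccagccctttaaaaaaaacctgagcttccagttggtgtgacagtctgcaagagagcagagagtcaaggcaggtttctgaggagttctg
Ifit3 (chr19:34583279-34583578, plus strand): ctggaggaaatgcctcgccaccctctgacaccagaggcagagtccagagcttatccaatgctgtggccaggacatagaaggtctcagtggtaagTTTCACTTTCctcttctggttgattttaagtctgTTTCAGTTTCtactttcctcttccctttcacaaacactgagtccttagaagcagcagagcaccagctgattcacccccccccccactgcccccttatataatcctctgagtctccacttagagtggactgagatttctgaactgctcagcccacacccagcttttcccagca
Rsad2 (chr12:26456403-26456702, minus strand): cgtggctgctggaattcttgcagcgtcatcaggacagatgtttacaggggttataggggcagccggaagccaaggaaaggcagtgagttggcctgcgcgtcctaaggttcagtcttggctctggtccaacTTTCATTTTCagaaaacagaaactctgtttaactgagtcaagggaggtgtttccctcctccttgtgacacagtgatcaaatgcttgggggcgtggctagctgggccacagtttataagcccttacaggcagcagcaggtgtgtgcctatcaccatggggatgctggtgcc
Oas3 (chr5:120777610-120777909, minus strand): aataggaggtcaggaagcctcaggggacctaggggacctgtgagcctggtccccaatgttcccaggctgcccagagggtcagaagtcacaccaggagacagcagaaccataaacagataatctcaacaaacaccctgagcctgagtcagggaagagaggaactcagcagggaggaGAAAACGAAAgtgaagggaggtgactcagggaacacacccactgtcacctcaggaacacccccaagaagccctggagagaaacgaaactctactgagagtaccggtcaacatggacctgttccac
AW112010 (chr19:11050517-11050816, minus strand): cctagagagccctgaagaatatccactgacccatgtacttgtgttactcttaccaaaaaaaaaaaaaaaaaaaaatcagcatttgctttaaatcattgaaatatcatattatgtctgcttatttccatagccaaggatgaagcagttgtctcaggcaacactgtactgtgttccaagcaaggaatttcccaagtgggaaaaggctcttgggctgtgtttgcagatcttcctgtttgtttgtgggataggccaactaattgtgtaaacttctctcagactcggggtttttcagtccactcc
Mki67 (chr7:135716330-135716629, minus strand): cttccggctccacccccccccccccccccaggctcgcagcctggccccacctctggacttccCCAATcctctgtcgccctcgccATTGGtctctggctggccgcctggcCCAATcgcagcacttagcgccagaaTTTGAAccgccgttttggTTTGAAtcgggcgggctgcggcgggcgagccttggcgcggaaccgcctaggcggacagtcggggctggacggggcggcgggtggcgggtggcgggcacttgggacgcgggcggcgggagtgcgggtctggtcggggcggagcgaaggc

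Ifit1 and Ifit3 carried the same pair of strings, TTTCACTTTC and TTTCAGTTTC. In Ifit1 they began 104 and 85 bases before the annotated start, and in Ifit3 156 and 122 bases before it. Rsad2 carried TTTCATTTTC 120 bases before its start, and Oas3 GAAAACGAAA 75 bases before its start. AW112010 held none in this window, which says only that these letters are not there. Mki67 held TTTGAA 116 and 98 bases before its start, with CCAAT at 188 and 141 and ATTGG at 166.

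Of the genes that rose, 374 had such a window and 52 of them (13.9%) held this core, against 426 of 12054 genes tested (3.53%) and 1079 of 27025 in the whole table (3.99%). The share was 46.2% (12 of 26) among genes that rose at least 2-fold and 51.1% (24 of 47) among members of the interferon lists that rose. The share among all tested members of those lists, risen or not, was not taken. Whether the 51.1% goes with the lists or with the rise therefore cannot be told. Genes that rose outside those lists held it in 8.56% (28 of 327) and genes that fell in 3.41% (3 of 88). TTCNNNGAA, the gamma-activated sequence, was in 9.63% of genes that rose, 25.5% of the interferon-list genes among them and 8.2% of genes tested. ACGTG, the core bound by hypoxia-inducible factors, was in 23.8%, 8.51% and 27.0% of the same sets. All motifs were searched on both strands, a gene with several windows counted once, and the letter patterns may share bases with each other. A match describes the sequence and is no measure of binding.

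Among cytosolic sensors of RNA and DNA, 10 of 14 tested members rose and none fell (median 0.70); 5, 5 and 9 without pairs 1, 2 and 3 rose. Zbp1, which senses left-handed nucleic acid and can start necroptosis, read 7.41, 8.74 and 7.65 in control and 9.13, 10.34 and 8.78 after ischemia in arrays 1, 2 and 3. Every ischemia array lay above every control array, and the rise was 1.48 (SE 0.11, limma adjusted p = 1.18e-05). Dhx58 (LGP2), a RIG-I-like receptor that tunes its relatives, read 7.32, 9.02 and 7.69 in control and 9.03, 10.06 and 8.95 after ischemia. Control 2 lay beside ischemia 1 and 3, but each pair rose, by 1.71, 1.05 and 1.26 (mean 1.34, limma adjusted p = 6.6e-05). Ifi209, of the DNA-binding PYHIN family, rose by 1.55 and the RNA helicase gene Ddx60 by 1.0. Ddx58 (RIG-I) and Ifih1 (MDA5), the sensors of viral RNA, rose by 0.98 and 0.72 and were named after their values were seen. The relay proteins downstream of the sensors did not pass: Mavs differed by 0.09 and Sting1 by 0.26, with adjusted p = 0.628 and adjusted p = 0.171.

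Ligands, receptors and brakes of the interferon system were mostly not called. Only 1 of 11 tested members rose, the brake Usp18, which strips ISG15 from proteins and blocks signalling at the interferon receptor. Its signals were 6.46, 8.34 and 6.76 in control and 8.31, 9.83 and 7.86 after ischemia. Pairs 1, 2 and 3 rose by 1.85, 1.48 and 1.09, and the mean change was 1.48 (SE 0.13, limma adjusted p = 6.12e-05). The receptor chains Ifnar1 and Ifnar2 differed by 0.06 and 0.30 (adjusted p = 0.689 and 0.107). Socs1 and Socs3, inducible inhibitors of cytokine receptors, differed by -0.29 and -0.22 without passing.

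Of 13 transcription factors of the interferon response, 4 rose and none fell (3, 4 and 2 without pairs 1, 2 and 3). Irf7 read 7.94, 10.60 and 8.96 in control and 10.16, 12.18 and 10.05 after ischemia, a mean rise of 1.63 or 3.09-fold (SE 0.15, limma adjusted p = 8.07e-05). The arrays numbered 2 were the highest of each group, and control 2 exceeded ischemia 1 and 3, so the groups overlapped while each pair rose. Stat2 and Irf9, partners in the complex that interferon activates, rose by 0.89 and 0.46. Irf1, which also answers interferon gamma, read 9.16, 9.28 and 9.12 in control and 9.62, 9.88 and 9.89 after ischemia. These groups did not overlap, and the rise was 0.61 (SE 0.10, limma adjusted p = 0.00504); its second, dimmer probe set differed by -0.06. Irf3, Irf5 and Irf8 differed by 0.19, 0.02 and -0.03 and were not called.

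The effectors that act on viral RNA gave the widest changes. Of 10 IFIT and OAS genes, 8 rose (median 1.07). Ifit2, whose protein binds RNA and limits translation, read 5.61, 9.10 and 6.31 in control and 8.76, 11.05 and 7.90 after ischemia. The pairs rose by 3.15, 1.95 and 1.59, a mean of 2.23 or 4.69-fold (SE 0.21, limma adjusted p = 8.26e-05), although control 2 lay above ischemia 1 and 3. Ifit3, a partner of Ifit1 and Ifit2, read 5.33, 9.84 and 6.76 and then 8.98, 11.20 and 8.02. Its pair changes of 3.66, 1.36 and 1.26 spread more, and the SE was 0.34 around a mean of 2.09 (limma adjusted p = 0.00414). The call was lost with a trended robust prior (adjusted p = 0.0945), and the change was 1.31 without pair 1. Ifit1, which binds RNA with a foreign cap, read 5.94, 8.59 and 6.50 and then 8.46, 10.30 and 7.67, a rise of 1.80 (limma adjusted p = 0.000197). Oas3, a synthetase of the second messenger that activates RNase L, read 7.17, 9.47 and 8.05 and then 9.35, 11.13 and 8.80, a rise of 1.53 (limma adjusted p = 0.000566).

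All 9 interferon-inducible GTPases tested rose (median 1.15). Mx1, a dynamin-like antiviral GTPase, read 4.55, 7.04 and 4.90 in control and 6.28, 8.91 and 5.69 after ischemia. In both groups arrays 1 and 3 lay below array 2, and each pair rose (mean 1.46, SE 0.16, limma adjusted p = 0.000255). The neighbour of Mx1, Mx2, rose by 1.30. Without the wild-type ischemia arrays the means of Mx1 and Mx2 would lie below the dim threshold of 5.36. They were thus tested only through the group where they were high, which favours a rise in this count. Gbp3, of the guanylate-binding proteins that attack the vacuoles of intracellular microbes, read 6.79, 7.89 and 6.82 in control and 7.98, 9.29 and 7.90 after ischemia. Its groups did not overlap, by a narrow gap between control 2 and ischemia 3, and the rise was 1.22 (limma adjusted p = 0.000408). Gbp9 rose by 1.16. Pair 2 moved most in this list, with medians of 1.21, 1.44 and 0.68 in pairs 1, 2 and 3.

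Among 25 other antiviral effectors 19 rose (median 0.85). Rsad2 (viperin), which makes a chain-terminating nucleotide, read 6.58, 8.93 and 7.0 in control and 8.48, 10.30 and 8.15 after ischemia. Its pairs rose by 1.90, 1.37 and 1.15 (mean 1.47, SE 0.13, limma adjusted p = 3.98e-05). Cmpk2, the kinase gene beside Rsad2 whose product feeds that reaction, rose by 1.15. Rtp4, a receptor chaperone induced by interferon, read 7.33, 10.93 and 8.75 and then 10.37, 11.41 and 9.79. Its change was uneven, at 3.04, 0.48 and 1.04 in the 3 pairs, and its mean of 1.52 passed with limma adjusted p = 0.0192 but not with a trended robust prior (adjusted p = 0.148); without pair 1 the change was 0.76.

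Smaller members of the program followed. The ISG15 conjugation list had 3 of 5 members up, with the conjugating enzyme Ube2l6 at 0.87 and the ligase Herc6 at 0.81. Among interferon-linked poly-ADP-ribose polymerases and partners 4 of 8 rose, namely Parp9 (0.73), Parp14 (0.54), Dtx3l (0.51) and Parp12 (0.45). That count was 0, 1 and 4 without pairs 1, 2 and 3, and 2 after quantile normalization. Of 11 antiviral TRIM genes 5 rose (3, 4 and 6 without pairs 1, 2 and 3), including Trim30d (0.83), Trim12a (0.78) and Pml (0.61), the organiser of nuclear bodies. Pml was separated between the groups, at 8.62, 9.11 and 8.56 in control and 9.21, 9.77 and 9.13 after ischemia (limma adjusted p = 0.00256).

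**Figure D3:**
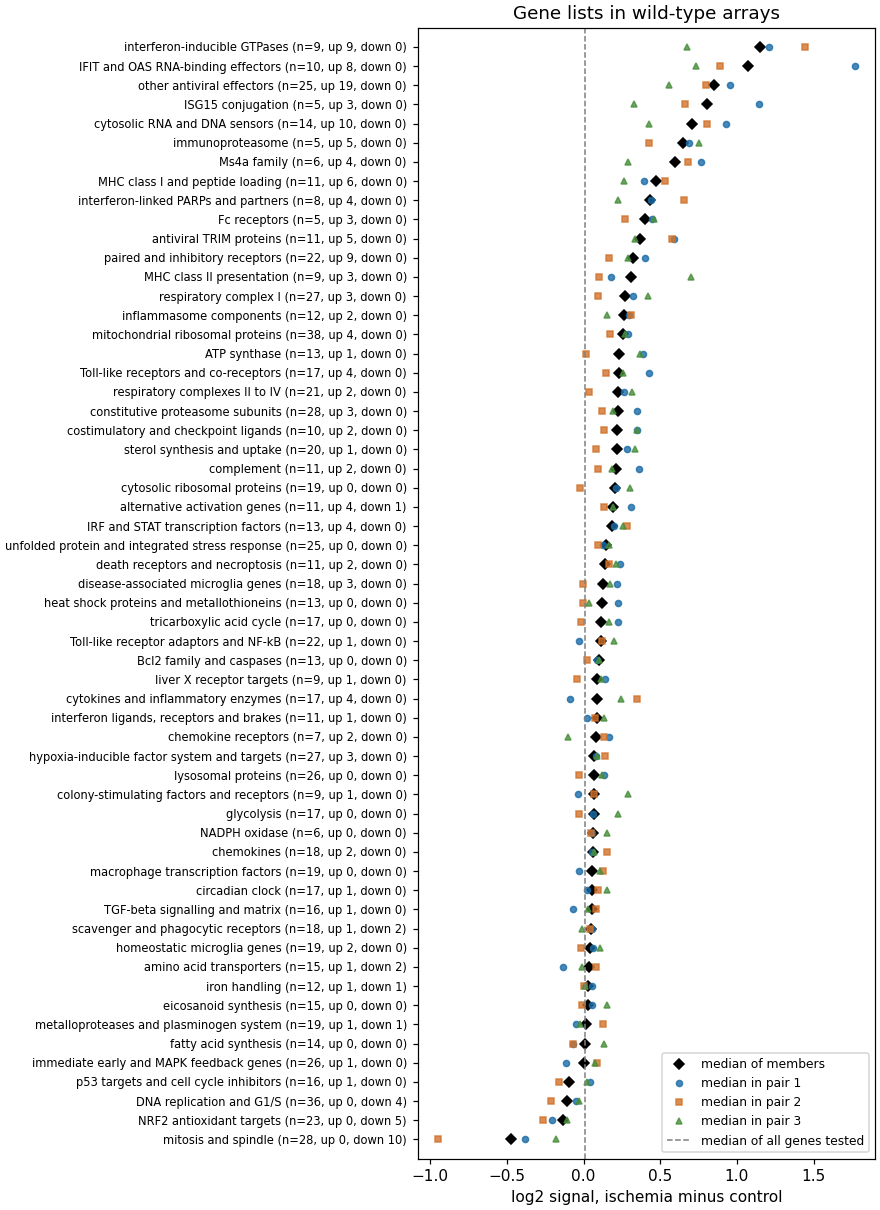
Median change of the log2 signal from control to ischemia in the wild-type arrays for each gene list (black diamonds) and in each pair (coloured points), with the number of members tested, up and down beside the name; the dashed line is the median of all 15273 genes, 0.01. Of the 9 interferon-linked lists 5 lie furthest right, from 1.15 for the GTPases to 0.70 for the sensors, while the other 4 lie at 0.08 to 0.43, and mitosis and spindle genes furthest left at -0.48, with pair 2 at -0.95.

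Several of the largest rises lay outside these lists. AW112010, a transcript induced in macrophages by lipopolysaccharide or interferon, read 7.54, 7.54 and 7.63 in control and 9.54, 9.53 and 9.17 after ischemia. The control arrays lay close together and all 3 ischemia arrays stood far above them, a rise of 1.85 or 3.59-fold (SE 0.14, limma adjusted p = 1.15e-05; 0.00406 without the block). Ifi206, another PYHIN gene, read 4.85, 7.77 and 4.84 and then 6.96, 9.79 and 6.37, a rise of 1.89 (limma adjusted p = 1.05e-05). Without the wild-type ischemia arrays the mean of Ifi206 would lie below the dim threshold, so it was tested only through the group where it was high. Timd4, a receptor for phosphatidylserine on dying cells, read 6.53, 6.02 and 6.71 in control and 7.81, 7.49 and 8.07 after ischemia. The 3 pairs agreed closely, at 1.27, 1.46 and 1.36, and the arrays numbered 2 were the lowest of each group (mean 1.37, SE 0.10, limma adjusted p = 1.15e-05). Phf11a and Phf11d, neighbours that encode PHD finger proteins, rose by 1.42 and 1.32, and Gm4951 rose by 1.58.

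Some genes that rose sat side by side. In the chromosomal order of tested genes, the longest run was 5 Schlafen genes on chromosome 11 (Slfn5, Slfn9, Slfn8, Slfn10-ps and Slfn2, with rises of 0.46 to 1.09). The next was 4 genes of the Ms4a family on chromosome 19, and runs of 3 included Ifit2, Ifit3 and Ifit1 on chromosome 19, Oas2, Oas3 and Oas1c on chromosome 5, Ifi206, Ifi213 and Ifi209 on chromosome 1, and Psmb9, Tap1 and Psmb8 on chromosome 17. Members of such families can share probe sequence, which was not tested. These runs were named after their values were seen.

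Genes of antigen presentation by MHC class I were among those that rose. All 5 immunoproteasome genes, whose subunits cut peptides for class I, rose (median 0.65), with medians of 0.69, 0.43 and 0.75 in pairs 1, 2 and 3; 3, 5 and 4 without pairs 1, 2 and 3 rose. Psmb10 read 9.08, 9.40 and 9.13 in control and 9.75, 9.92 and 9.88 after ischemia. Its groups did not overlap, and it rose by 0.65 (SE 0.10, limma adjusted p = 0.00293). Psme1, of the activator that caps the immunoproteasome, rose by 0.70 and Psmb8 by 0.69. In the class I and peptide loading list 6 of 11 members rose, but only 3, 2 and 3 without pairs 1, 2 and 3 and 2 after quantile normalization. The 6 included the peptide transporter Tap1, which read 8.14, 9.09 and 8.29 and then 8.94, 10.03 and 8.97, a rise of 0.81 (limma adjusted p = 0.00075). H2-T24, a non-classical class I gene, rose by 1.19, while B2m, the invariant light chain, differed by 0.17 (adjusted p = 0.436). Constitutive proteasome subunits changed less, with 3 of 28 called higher (median 0.23), 1 with the wild-type arrays alone, 0, 3 and 0 without pairs 1, 2 and 3, and 0 after quantile normalization.

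Of 9 class II presentation genes 3 rose (1, 4 and 1 without pairs 1, 2 and 3): H2-Aa, H2-Ab1 and Cd74, the chains and the invariant chain of the class II molecule. Cd74 did not pass with a trended robust prior (adjusted p = 0.0703). H2-Ab1 read 6.59, 7.79 and 7.02 in control and 7.62, 8.29 and 8.25 after ischemia. The pair changes were 1.03, 0.50 and 1.24, with the smallest in pair 2 (mean 0.92, SE 0.13, limma adjusted p = 0.00215). Ciita, the class II transactivator, differed by -0.05 and was not called. The costimulatory ligand Cd86 read 6.86, 7.82 and 7.17 in control and 7.80, 9.02 and 8.14 after ischemia and rose by 1.04 (SE 0.11, limma adjusted p = 0.000194), and Lgals9, a galectin that binds checkpoint receptors, rose by 0.92. These were 2 of 10 members of their list, and Cd40 (-0.10) and Cd80 (0.24) did not pass.

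Receptors of myeloid cells rose in 3 families. Among Fc receptors for antibody 3 of 5 rose, led by the high-affinity receptor gene Fcgr1, which read 9.20, 11.15 and 9.38 in control and 10.53, 12.11 and 10.07 after ischemia (rise 0.99, limma adjusted p = 0.000483). Fcgr4 rose by 0.59 with no overlap of groups, and the inhibitory receptor gene Fcgr2b by 0.40, a call lost with the wild-type arrays alone (adjusted p = 0.051). Of 22 paired and inhibitory receptors 9 rose and none fell (5, 7 and 5 without pairs 1, 2 and 3 rose). Pilra, which carries an inhibitory motif, read 9.31, 8.25 and 9.54 in control and 10.44, 9.57 and 10.16 after ischemia. The groups did not overlap and the rise was 1.02 (SE 0.13, limma adjusted p = 0.00097); its activating partner Pilrb1 rose by 0.76. Clec4e (Mincle), a receptor for dead cells and fungi, rose by 0.91. In the Ms4a family of tetraspan membrane proteins 4 of 6 rose, from 0.48 for Ms4a6d to 0.95 for Ms4a6b, with 1, 2 and 2 without pairs 1, 2 and 3 and 2 after quantile normalization. Arrays numbered 2 were the brightest of each group for Ms4a6b, at 9.15 and 10.41.

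The inflammatory lists had 1 to 4 members called in each, shares to be read against the 2.99% of all genes that rose. Cfb, complement factor B of the alternative pathway, read 9.07, 8.0 and 8.31 in control and 10.07, 10.38 and 9.86 after ischemia. The groups were well apart, and the rise was 1.65 or 3.13-fold (SE 0.18, limma adjusted p = 0.000255; 0.0475 without the block). Its neighbour C2 rose by 0.60, the only other of 11 complement genes to do so (without pairs 1, 2 and 3 the list had 2, 1 and 3), and C1qa, C1qb and C1qc differed by 0.12, 0.21 and 0.21 without passing. Of 18 chemokines 2 rose (1, 2 and 1 without pairs 1, 2 and 3). Ccl5, which draws T cells and monocytes, read 8.87, 10.86 and 10.12 in control and 10.86, 12.43 and 11.28 after ischemia. Ischemia 1 only just passed control 2, each pair rose, and the mean change was 1.57 (SE 0.13, limma adjusted p = 2.88e-05). Ccl9 rose by 0.43. The interferon-inducible chemokine genes Cxcl10 (0.45, adjusted p = 0.0954) and Cxcl9 (0.70, adjusted p = 0.0951) did not pass, nor did the neutrophil attractant Cxcl2 (-0.76, adjusted p = 0.0978).

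The classical inflammatory cytokines were not called. Tnf differed by 0.09, Il1b by 0.36, Il1a by -0.05 and Nos2, the inducible nitric oxide synthase, by -0.15. Of 17 cytokine and enzyme genes 4 rose (3, 2 and 2 without pairs 1, 2 and 3). Without pair 2, 1 member of this list fell. Il18, a cytokine released by inflammasomes, read 5.47, 6.01 and 5.53 in control and 6.74, 7.13 and 6.10 after ischemia, without overlap (rise 0.98, SE 0.15, limma adjusted p = 0.00292). Acod1, the enzyme that makes itaconate, read 8.11, 7.87 and 8.32 and then 8.43, 9.17 and 9.12, a rise of 0.81 that ranged from 0.33 in pair 1 to 1.30 in pair 2. Il15, which sustains natural killer cells, rose by 0.71 and Saa3, an acute phase protein gene, by 0.54. Ptgs2, the inducible cyclooxygenase, read 9.54, 6.74 and 7.14 in control and 7.11, 6.85 and 6.48 after ischemia. Its difference of -1.0 was largest in pair 1, where control 1 was the highest array, and did not pass (adjusted p = 0.0818).

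Toll-like receptors rose in 4 of 17 members: Tlr3 and Tlr8, which sense RNA in endosomes, at 0.79 and 0.52, and the surface pair Cd180 and Ly86 (MD-1), at 0.44 and 0.62. The count was 1, 4 and 1 without pairs 1, 2 and 3 and 2 after quantile normalization, and Cd180 did not pass with the wild-type arrays alone (adjusted p = 0.0556). Tlr2 (0.13) and the lipopolysaccharide co-receptor Cd14 (0.01) were not called. The largest change of the list, 1.05, was not called either. Of 22 adaptor and NF-kB genes only Ikbke, a kinase that activates Irf3 and Irf7, rose, by 0.37, and not with the wild-type arrays alone (adjusted p = 0.0583). None of the 22 was called with any pair left out. Of 12 inflammasome genes, Casp4 (mouse caspase-11, 0.68) and Nlrp1a (0.51) rose. Casp4 did not pass with the wild-type arrays alone (adjusted p = 0.0502), and the list had 0, 1 and 1 without pairs 1, 2 and 3. In the necroptosis and death receptor list 2 of 11 rose (1, 1 and 1 without pairs 1, 2 and 3). Mlkl, the pore protein that ends necroptosis, read 8.11, 8.42 and 7.99 in control and 9.06, 9.62 and 8.79 after ischemia; the groups did not overlap and it rose by 0.98 (SE 0.13, limma adjusted p = 0.00097). Fadd, the adaptor of death receptors, rose by 0.39, and Ripk3, the kinase that acts on Mlkl, differed by 0.27 without passing (adjusted p = 0.188). None of 13 Bcl2 family and caspase genes was called by limma (3 at an unadjusted p below 0.05).

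Called genes of microglial states rose, except in the alternative activation list, where 4 of 11 rose and 1 fell. Of 19 homeostatic genes 2 rose, P2ry13, a purine receptor, by 0.41 and Aif1; the list had 0, 1 and 1 without pairs 1, 2 and 3, and 0 after quantile normalization. Disease-associated genes had 3 of 18 up (2, 2 and 1 without pairs 1, 2 and 3): Cst7, Cd52 and Csf1, the growth factor of microglia, by 0.78, 0.75 and 0.60, while Apoe (0.07), Lpl (-0.03) and Itgax (0.13) were not called. Among alternative activation genes Chil3, a chitinase-like protein gene, read 7.36, 4.76 and 6.38 in control and 8.82, 5.48 and 7.78 after ischemia. Arrays numbered 2 were the lowest of each group, all pairs rose, and the mean was 1.2 (SE 0.13, limma adjusted p = 0.000278). Arg1 rose by 0.67 and Pf4 by 0.70, and Folr2, a folate receptor gene of resident macrophages, fell by 0.58. Of 18 scavenger and phagocytic receptors, Timd4 rose and 2 fell, Stab1, a scavenger receptor gene, by 0.53 and Gas6, the bridge between dying cells and TAM receptors, by 0.45; the falls numbered 0, 3 and 0 without pairs 1, 2 and 3. Of the alternative activation genes, Folr2 did not pass without pair 1 or pair 2.

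Genes of cell division fell. Of 28 mitosis and spindle genes 10 fell and none rose (median -0.48), with medians of -0.38, -0.95 and -0.18 in pairs 1, 2 and 3. Mki67, the marker of cycling cells, read 7.28, 8.64 and 6.93 in control and 6.23, 6.76 and 6.11 after ischemia. The lowest control array lay above the highest ischemia array, and Mki67 fell by 1.25 or 2.37-fold (SE 0.15, limma adjusted p = 0.000627). Ccna2, the cyclin of S phase and mitosis, read 6.71, 8.59 and 6.29 and then 5.71, 6.55 and 5.93. Control 2 stood far above all the others, the groups overlapped, and the change of -1.14 had an SE of 0.22 (limma adjusted p = 0.013). Top2a, the topoisomerase that untangles chromosomes, fell by 0.98; its other probe set, at a mean of 3.35, differed by 0.28. Neither Ccna2 nor Top2a passed with a trended robust prior. The spindle and cytokinesis genes Prc1, Anln and Kif2c fell by 0.91, 0.87 and 0.82, each without overlap of groups. The mean of Kif2c would lie below the dim threshold without the wild-type control arrays. Kif2c was thus tested only through the group where it was high, which favours a fall in this count.

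**Figure D4:**
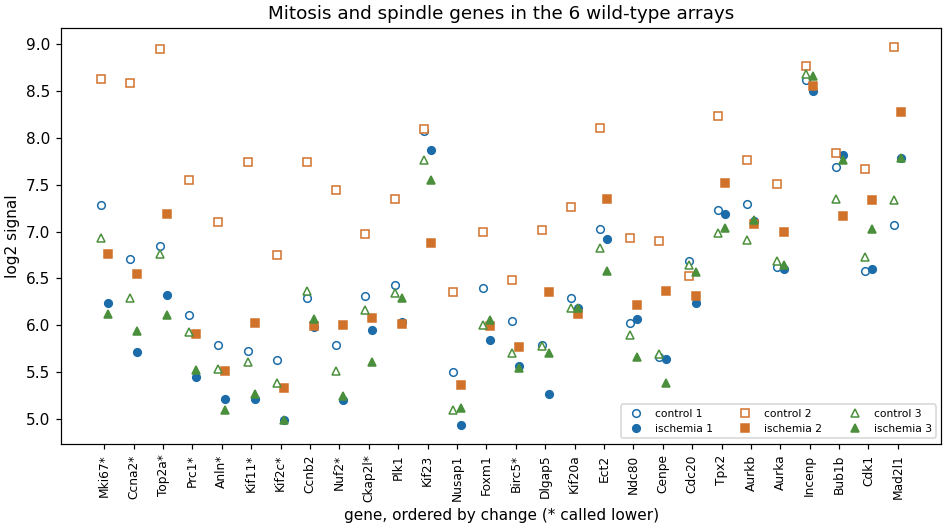
Log2 signal of the 28 mitosis and spindle genes in each wild-type array, ordered by change, with open symbols for control and filled symbols for ischemia; an asterisk marks genes called lower. Control 2 (open squares) is the highest array for 27 of the 28 genes, at 8.64 for Mki67 and 8.95 for Top2a, and the Mki67 values of the ischemia arrays, 6.11 to 6.76, lie below all 3 controls.

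Control 2 had the highest mean of the mitosis list, 7.33, against 6.31 and 6.16 in controls 1 and 3, and the ischemia means were 5.99, 6.29 and 5.98. Without pair 2 the list median was -0.25, and 3 members fell while 1 rose. Falls numbered 6 without pair 1 and 13 without pair 3, with 0 rises in both. A lower share of dividing cells and less of these RNAs per cell cannot be told apart in such bulk samples. Of 36 DNA replication and G1/S genes 4 fell: Rrm2, a ribonucleotide reductase subunit (-0.78), the methylation maintenance factor Uhrf1 (-0.53), thymidine kinase Tk1 (-0.45) and the helicase subunit Mcm7 (-0.43). That count was 1, 0 and 2 without pairs 1, 2 and 3. Pcna (0.11) and Cdk1 (-0.01), central to replication and mitotic entry, were not called. TTTGAA lay in the promoter window of 53.8% (7 of 13) of the cell cycle genes that fell and 27.3% (24 of 88) of all genes that fell, against 14.4% of genes tested. Among all tested mitosis and replication genes, fallen or not, the share was 39.2% (20 of 51). CCAAT was in 61.5% of the cell cycle genes that fell and in 58.8% of all tested mitosis and replication genes, against 41.3% of genes tested.

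Outside cell division, Slco4a1 had the largest fall. It read 9.61, 9.26 and 10.08 in control and 8.69, 7.77 and 8.83 after ischemia, every pair fell, and the mean fall was 2.33-fold (-1.22, SE 0.11, limma adjusted p = 6.12e-05). Il1f9 (interleukin-36 gamma), an alarm cytokine, fell by 0.92. The mean of Il1f9 would lie below the dim threshold without the wild-type control arrays. It was thus tested only through the group where it was high, which favours a fall. Cyp1b1, a cytochrome P450 enzyme gene, and Slc13a3, a dicarboxylate transporter gene, fell by 0.77 and 0.75.

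Of 23 antioxidant genes driven by NRF2, 5 fell and none rose (median -0.14). Slc7a11, the cystine importer that feeds glutathione synthesis, read 10.99, 9.76 and 10.92 in control and 10.33, 8.78 and 10.57 after ischemia, a fall of 0.67 in which arrays numbered 2 were the lowest of each group (SE 0.15, limma adjusted p = 0.0258). The quinone reductase Nqo1 read 7.84, 7.17 and 8.28 and then 7.15, 6.23 and 7.91, a fall of 0.66. Gsta3, Srxn1 and Cat, a glutathione transferase, sulfiredoxin and catalase, fell by 0.51, 0.50 and 0.48, Cat being named after its value was seen. Hmox1, heme oxygenase, differed by -0.24 and Nfe2l2, the gene of NRF2 itself, by 0.17, neither called. The list had 1, 0 and 3 falls without pairs 1, 2 and 3. Of 12 iron genes, the ferroxidases went opposite ways: Cp (ceruloplasmin) rose by 0.78 and Heph (hephaestin) fell by 0.63. The iron list had 0, 1 and 1 falls without pairs 1, 2 and 3.

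Of 27 genes of the hypoxia-inducible factor system tested after 24 h of reperfusion, 3 rose and none fell (median 0.07): Hilpda, a lipid droplet protein gene (0.39), Egln3, an oxygen-sensing hydroxylase gene (0.39), and Higd1a, a mitochondrial survival factor gene (0.38). No gene of the list was called with any pair left out, and all 3 calls were lost with the wild-type arrays alone (limma adjusted p = 0.0637, 0.0592 and 0.0515). Higd1a read 6.42, 6.52 and 6.37 in control and 6.84, 6.92 and 6.70 after ischemia, without overlap. Its other probe set, at a mean of 6.32 against 6.63 for the one used, differed by 0.10. Vegfa, the vessel growth factor, differed by 0.20, Slc2a1, the glucose transporter, by 0.16, and Bnip3, a mitophagy receptor, by 0.22. None of 17 glycolytic genes, 13 heat shock and metallothionein genes or 25 unfolded protein and integrated stress response genes was called in either direction by limma, with 3, 1 and 6 of them at an unadjusted p below 0.05, all higher. Aldoc, an aldolase, came closest among the glycolytic genes at 0.59 (adjusted p = 0.0607). Without pair 2, 2 glycolytic and 3 unfolded protein and integrated stress response genes rose.

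Mitochondrial and sterol genes had small changes above zero. All 27 complex I genes, all 21 of complexes II to IV and all 13 of ATP synthase tested had changes above zero, with medians of 0.27, 0.23 and 0.23, and 3, 2 and 1 of them rose. Without pair 1 or pair 3 none of these was called, and without pair 2 there were 6, 3 and 4. Over all genes tested, 8003 of 15273 had changes above zero. So did all 28 constitutive proteasome genes and 18 of 19 cytosolic ribosomal protein genes, so the sign was not particular to mitochondrial genes. Ndufs4, an accessory subunit of complex I, read 7.94, 8.80 and 8.09 in control and 8.89, 8.90 and 8.88 after ischemia; the pair changes were 0.95, 0.10 and 0.79 (mean 0.61, limma adjusted p = 0.0288, 0.0528 with the wild-type arrays alone). Cox17, a copper chaperone of complex IV, rose by 0.47. Mitochondrial ribosomal proteins had 4 of 38 up, led by Mrpl42, which read 6.41, 7.22 and 6.43 and then 7.35, 7.78 and 7.07 (rise 0.71, limma adjusted p = 0.00204); the list had 1, 2 and 1 without pairs 1, 2 and 3 and 1 after quantile normalization. All 20 sterol genes were above zero (median 0.22) and 1 rose, Nsdhl of cholesterol synthesis, by 0.54, with adjusted p = 0.0683 in the wild-type arrays alone and 0, 3 and 0 called in the list without pairs 1, 2 and 3. The 75th percentile of signal was higher in the ischemia arrays (8.24 to 8.25) than in control (8.13 to 8.17), and after quantile normalization no respiratory, ATP synthase or sterol gene was called while all medians stayed above zero (0.11 to 0.16); the part of this general shift in their change was not tested.

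In the fibroblast and mural list 6 of 10 markers passed the dim filter, with array means of the 10 of 6.21, 5.82 and 5.87 in control and 5.71, 5.63 and 5.94 after ischemia, and none was called by limma, though 4 had an unadjusted p below 0.05, all lower. None of 8 astrocyte and 5 neuron markers tested was called either, with 5 (2 higher and 3 lower) and 3 (all lower) at an unadjusted p below 0.05. Without pair 2, 1 astrocyte marker rose. None of 5 neutrophil and 2 lymphocyte markers was called or had an unadjusted p below 0.05. Of 9 oligodendrocyte markers Cnp rose by 0.43, and of 5 endothelial markers Flt1 rose by 0.42 and Cldn5 fell by 0.41. None of these 3 passed after quantile normalization, and neither Flt1 nor Cldn5 passed with any pair left out. The oligodendrocyte list had 0, 1 and 0 rises without pairs 1, 2 and 3. Among endothelial markers Pecam1 and Cdh5 were below the dim threshold, while Vwf read 8.79 to 9.96 and Flt1 9.11 to 9.91. Among border macrophage and monocyte markers Ccr2 was below it, while Mrc1 read 11.10 to 11.51 and Ms4a7 9.46 to 10.65. The T cell gene Cd3g and the neutrophil gene Ly6g were below it and Cd3e read 6.41 to 6.80. Among 6 border macrophage and monocyte markers only Pf4 rose. The part of other cell types in the results above was not tested.

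The same exposure in knockout-labelled cells gave 82 higher (0.537%) and 17 lower genes (0.111%). Of the 457 genes that rose in wild type, 371 had a change of the same sign there and 23 were called. Of the 113 that fell, 93 had the same sign and 3 were called, Slco4a1, Stab1 and Folr2. The share of all genes tested with the same sign in both genotypes was not taken, so these counts have no background. Genes with a call in both genotypes included Pilra, with 1.02 in wild type and 1.21 in knockout-labelled cells, Cd86 (1.04 and 0.58), Mrpl42 (0.71 and 0.71) and Slco4a1 (-1.22 and -1.08). The spread of each gene comes from both genotypes, so these calls are not independent of the wild-type ones.

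The difference between both ischemia effects, tested in the same fit, passed for 47 genes: 45 with a higher effect in wild type (0.295%) and 2 with a lower one (0.0131%). Of the 457 genes that rose, 44 were among them, 20 of these on the interferon lists, and none of the 113 that fell. Ifit1 rose by 1.80 in wild type and differed by -0.53 in knockout-labelled cells, where it read 5.27, 5.82 and 5.05 in control and 4.75, 4.95 and 4.85 after ischemia (difference of effects 2.33, SE 0.27, limma adjusted p = 0.00105). For Ccl5 the effects were 1.57 and -0.35 (adjusted p of the difference 0.000591), for Cfb 1.65 and -0.05 (0.0102) and for AW112010 1.85 and 0.32 (0.00281). For the peptide transporter gene Tap1 the effects were 0.81 and -0.12 (0.013). Ifit3 and Rtp4 differed by 1.89 and 1.57 between genotypes without passing (adjusted p = 0.203 and 0.303), and for Mki67 the difference of -0.70 did not pass either (0.399).

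The remaining 3 of the 47 were not called in wild type. Cxcl16, a membrane-bound chemokine gene, differed by 0.21 in wild type and fell by 0.58 in knockout-labelled cells. Chek1, a checkpoint kinase gene, and Hells, a chromatin remodeller gene, differed by -0.19 and -0.27 in wild type and rose by 0.66 and 0.58 in knockout-labelled cells. They were named after their values were seen. Without the block no difference of effects passed, while 443 genes had an unadjusted limma p below 0.05 (1291 with the block).

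**Figure D5:**
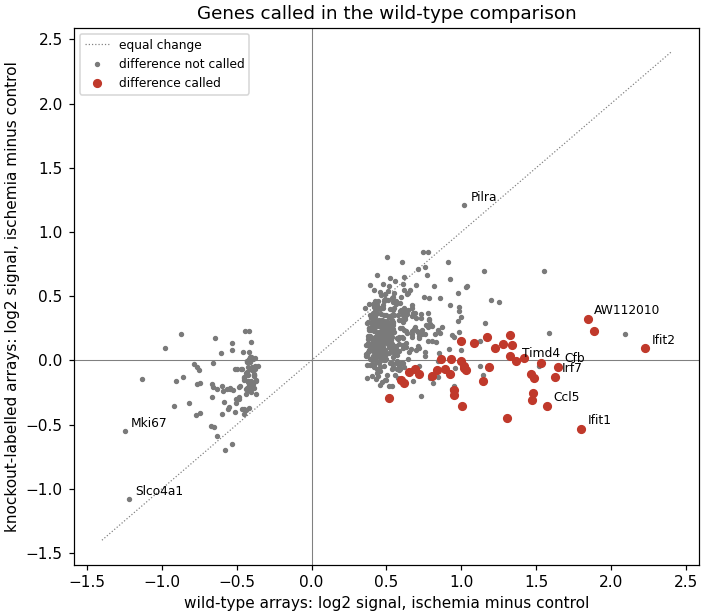
Change of the log2 signal from control to ischemia in wild-type (horizontal) and knockout-labelled arrays (vertical) for the 570 genes called in wild type; red points are the 44 whose effects differed between genotypes, and the dotted line marks equal change. The red points were chosen by that difference, so their distance from the line follows from the choice. They lie between -0.53 and 0.32 on the vertical axis, Ifit1 lowest, while Pilra and Slco4a1 lie near the line.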

How the data were processed

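Expression in 12 samples of cultured mouse microglia was read on Affymetrix Mouse Gene 1.0 ST arrays, of which 6 make up the wild-type comparison. The deposited values are log2 signals that the authors made with Affymetrix Expression Console 1.1 and RMA (background correction, quantile normalization and probe set summary), per the submitters' processing notes. Scanner files were not used here, so probe-level background could not be examined, and precision is limited by the number of arrays. Groups were taken from the sample titles.

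The table holds 35557 probe sets. GEO's platform annotation pairs 21789 with a single symbol and 1621 with several, and leaves 12147 unlisted. The brightest probe set by mean over 12 arrays stood for each of 19938 genes (999 had several), and 4665 dim genes were dropped, leaving 15273; the threshold was a mean of 5.36, which 30% of probe sets did not exceed. limma 3.58.1 in R 4.3.3 fitted all 12 arrays with the replicate number within genotype as a block and 1 ischemia effect per genotype, leaving 4 residual degrees of freedom. P-values were adjusted by Benjamini-Hochberg over all genes tested, and the difference of the effects came from the same fit. The procedure was tested on simulated data in which the pairs were built in. That run could not test whether same-numbered arrays are true pairs. Array medians were 6.30 to 6.40.

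Pairs followed equal replicate numbers in the titles. No label explains these numbers, so only the data could speak for the pairing. Deviations from the group means correlated at 0.48, 0.73 and 0.48 in same-numbered wild-type arrays (-0.62 to 0.40 in others) and at 0.36, 0.32 and 0.49 in knockout-labelled arrays (-0.44 to 0.22 in others). The 0.40 was wild-type control 1 with ischemia 3, close to the 0.48 of pairs 1 and 3. The members, gene lists and tests were chosen with earlier results of these data known. Named genes are a selection from the 20 largest rises and 15 largest falls with 1 sign in all pairs, up to 4 called members of each list with the largest change (or the 2 with the smallest p), and Tlr4; other genes were named after their values were seen. Of the genes given without a call, several were chosen for their known role after the values were known. Alternatives changed the block, the arrays fitted, the dim filter, the normalization, the prior, the choice of probe set and the replicates kept. Promoter windows and motif matches came from RefSeq on GRCm38.p6 and were handled in Python 3.11.15 with pandas 2.3.3.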

Additional observations from a re-analysis of the deposited data

Results flagged for a closer look

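For 47 genes the effect of ischemia and reperfusion differed between wild-type and knockout-labelled cells in limma's test of the difference itself. All values that follow are log2 differences, wild-type effect minus knockout-labelled effect, and all are above zero. Among the antiviral effectors the difference was 2.33 for Ifit1, 2.13 for Ifit2, 1.55 for Oas3, 1.78 for Rsad2, 1.31 for Cmpk2, 1.57 for Mx1, 1.75 for Mx2 and 1.13 for Gbp3. Among sensors, transcription factors and regulators of the interferon response it was 1.75 for Irf7, 0.95 for Stat2, 1.73 for Usp18, 0.86 for Ube2l6, 1.62 for Zbp1, 1.22 for Dhx58 and 1.65 for Ifi206. Among genes of antigen presentation and myeloid receptors it was 1.24 for H2-T24, 0.93 for Tap1, 0.76 for Psmb8, 0.74 for Psmb10, 1.03 for Lgals9, 1.00 for Fcgr1, 0.75 for Fcgr4 and 1.18 for Ms4a6b. For the others named it was 1.52 for AW112010, 1.70 for Cfb, 1.93 for Ccl5, 1.41 for Phf11a, 1.37 for Timd4 and 1.13 for Phf11d. Tlr4 signals did not separate the genotype labels, so the part of Tlr4 in these differences was not tested. In knockout-labelled arrays Mx1 (4.62 in control, 4.51 after ischemia), Mx2 (4.96, 4.51) and Ifi206 (4.37, 4.60) had means below the dim threshold of 5.36. The control mean of Irf7 was 6.98 there against 9.17 in wild type, that of Ccl5 7.37 against 9.95, and that of Psmb10 9.33 against 9.20. The part of such levels in the differences of effects was not tested.

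Probe sets that carry no single gene symbol were not used in the comparison. In a fit of all probe sets above the dim threshold, 1 of 1006 with several symbols rose, by 1.34, and 1 of 7235 with no gene listed rose, by 0.96, and none of either kind fell.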

How the results depend on the processing

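The block decided the number of calls. Without the replicate block 2 genes were higher, 0 lower and 0 differed between genotypes, against 457, 113 and 47 with it, and with the wild-type arrays alone and no block 1 and 0 (added after seeing the data). With all probe sets in the fit, also added after seeing the data, 17 were higher and 1 lower. With no dim filter the counts were 245, 37 and 27, and quantile normalization left 284 higher. Median centring gave 1091 higher and moved the median change of all genes from 0.0117 to 0.0718; 93.0% of its calls were rises, against 80.2%, and 94.3% without pair 2. Leaving out each wild-type replicate in turn gave 124 to 460 higher, 19 to 59 lower and 26 to 49 differing genes. The cause of these moves was not tested. The Tlr4 change of -0.05 turned to 0.0131 under median centring and ranged from -0.13 to 0.016 when each replicate was left out. Of 188 genes open to naming, 165 kept their side of the threshold with the wild-type arrays alone, 136 with no dim filter, 171 with a trended robust prior and 47 without the block. The dim filter and 3 arrays a group limit what could be called.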
